A study of Mus musculus with 6 samples.

Results

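Glutathione S-transferases (GSTs) were examined in bone marrow derived mast cells (BMMC) of mice that were wild type (WT) or had lost the microRNA miR-155 (miR-155 KO). The set comprised 10 genes taken by symbol, Gstt1, Gstt2, Gstt3, Gstm1, Gstm5, Gsta4, Gsto1, Gstk1, Gstz1 and Mgst1, out of 19938 genes with an unambiguous probe set. The rule took, for each symbol, the probe set with the highest mean over the 6 arrays. Each of the 10 genes had only 1 such probe set, so no gene's row was picked by its value. The genes themselves were proposed with results of these arrays known. Their levels and differences are therefore a description, and the p-values below are those of a fit over all 19938 genes and are not independent evidence.

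All mice were C57BL/6J, and each genotype was represented by 3 independent cultures with 1 Affymetrix Mouse Gene 1.0 ST array each. Marrow was cultured for 5 weeks with 0.5 ng/ml of IL-3 plus 1 ng/ml of SCF. The cells then received 0.2 µg/ml of anti-DNP IgE overnight and were stimulated through that IgE with 20 ng/ml of the antigen DNP-HSA for 1 h. Both genotypes were stimulated, so the comparison is between genotypes in stimulated cells. The ages and sexes of the mice, and how the deletion was made, were not given in the sources used here. The deposited RMA values are on a log2 scale, on which a difference of 1 is a 2-fold change.

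GSTs join the tripeptide glutathione to electrophilic compounds, among them drugs, environmental toxicants and products of lipid peroxidation, and so prepare them for export from the cell. The soluble enzymes are sorted into classes by sequence (alpha, mu, pi, theta, omega and zeta), a kappa enzyme lies in mitochondria and peroxisomes, and membrane-bound forms belong to a separate family that includes leukotriene C4 synthase. In mast cells, relatives of these enzymes make leukotriene C4 and prostaglandin D2. Many GST genes carry binding sites for NRF2, which acts at antioxidant response elements, or for the aryl hydrocarbon receptor, which acts at xenobiotic response elements.

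The deleted microRNA gives the mature strand below (RefSeq, GRCm38.p6, chromosome 16, positions 84714143 to 84714165, plus strand). It is shown because its loss defines the KO group, with the seed, bases 2 to 8, in capitals.
mmu-miR-155-5p: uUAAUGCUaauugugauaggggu

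The next sequences, also from RefSeq on GRCm38.p6, are the 150 bases before an annotated transcript start, written 5′ to 3′ on the gene's strand. Gstt1, Gstt3 and Ddt are shown because they lie side by side and differed in their values, as described further on. Gstm5, Mgst1 and Gclm are shown because they hold the antioxidant response element core. The windows of Slc7a11 and Esd, which are also described below, were searched too and held none of the motifs. Capitals mark every match on either strand to that core (TGACNNNGC), to the xenobiotic response element core (GCGTG) or to an AP-1 site (TGANTCA), and a sequence without capitals has no match in the stretch shown.
Gstt1 (chr10:75797732-75797881, minus strand): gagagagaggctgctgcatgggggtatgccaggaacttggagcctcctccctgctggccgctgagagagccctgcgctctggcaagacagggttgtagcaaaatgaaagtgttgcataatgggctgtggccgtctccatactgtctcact
Gstt3 (chr10:75781423-75781572, minus strand): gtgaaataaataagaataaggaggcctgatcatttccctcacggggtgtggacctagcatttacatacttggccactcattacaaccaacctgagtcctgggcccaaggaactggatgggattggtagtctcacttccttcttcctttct
Ddt (chr10:75773375-75773524, minus strand): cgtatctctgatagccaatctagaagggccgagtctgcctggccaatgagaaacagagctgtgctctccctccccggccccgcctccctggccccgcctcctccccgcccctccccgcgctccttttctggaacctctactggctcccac
Gstm5 (chr3:107895704-107895853, plus strand): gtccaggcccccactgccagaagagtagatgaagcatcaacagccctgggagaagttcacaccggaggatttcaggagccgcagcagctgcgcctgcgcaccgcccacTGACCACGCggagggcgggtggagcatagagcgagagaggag
Mgst1 (chr6:138140377-138140526, plus strand): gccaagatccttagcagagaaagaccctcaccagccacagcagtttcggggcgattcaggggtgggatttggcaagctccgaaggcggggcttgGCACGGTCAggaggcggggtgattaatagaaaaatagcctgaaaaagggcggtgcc
Gclm (chr3:122245407-122245556, plus strand): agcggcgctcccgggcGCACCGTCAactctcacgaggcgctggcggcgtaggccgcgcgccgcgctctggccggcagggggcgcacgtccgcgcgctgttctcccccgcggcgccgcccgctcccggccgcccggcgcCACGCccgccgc

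RefSeq windows of 300 bases (250 before the start and 50 after it) were found for 8 of the 10 GST genes. There were 12 windows in all, since 4 of the genes had more than 1 annotated start. The antioxidant response element core occurred in 2 of the 12 (1 each of Gstm5 and Mgst1), the xenobiotic response element core in 3 (1 of Gstm5 and both of Gstm1) and the AP-1 site in 1 (Gstm5). The 2 windows of Gstm1 overlap and share a single match, at -76 or -231 from the start depending on the window. By gene, the xenobiotic core thus occurred in 2 of the 8. The 2 windows of Gstt3 overlap as well, so the 12 windows are not separate observations. Among all 32851 windows of this length, 12.4%, 32.4% and 7.81% held the 3 motifs. In Gstm5 the antioxidant core at position -42 overlapped a xenobiotic core at -38, counted from the start. A match describes letters only, and where a motif was not found the letters are absent from this window and nothing more.

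The arrays showed the expression pattern of mast cells. Of 12 mast cell markers, 11 had means more than 1 log2 unit above the array medians, which lay between 3.67 and 3.74, and their summed linear intensity overlapped between genotypes (26427 to 30356 in WT, 26730 to 32277 in KO). By limma 0 of the 12 passed (2 higher and 1 lower at an unadjusted p under 0.05). Hdc at 0.84 (SE 0.28) and Mcpt4 at 0.44 (SE 0.13) were the higher genes, both with KO above WT on every array. Mitf at -0.29 (SE 0.12) was the lower gene. Of the other cell type lists, 0 of 10 neutrophil and 0 of 8 lymphocyte markers stood that far above the array medians, as did 2 of 9 for basophils and eosinophils (Cd200r3 and Mcpt8), 1 of 8 for dendritic cells (H2-Ab1) and 1 of 6 for erythroid cells and megakaryocytes (Itga2b). The summed levels of these 5 lists overlapped between genotypes, and 0 of their members passed by limma (1 higher and 2 lower at an unadjusted p under 0.05). The dendritic cell list was split, with 4 differences above 0 and 4 below. H2-Ab1, an MHC class II gene, differed by -0.56 (SE 0.10, adjusted p = 0.0523 by limma), with KO below WT on every array. Itgax, the higher gene at an unadjusted p under 0.05, differed by 0.39 (SE 0.17), and its arrays overlapped between genotypes. The summed level of 11 macrophage and monocyte markers was 508 to 618 in WT and 289 to 368 in KO, and most of it was Cx3cr1, the fractalkine receptor, which was also the only 1 of the 11 more than 1 log2 unit above the array medians and the only 1 that passed the test, as lower in KO (-0.95, SE 0.14, adjusted p = 0.0280). Without Cx3cr1 the sum of the other 10 overlapped between genotypes (92.3 to 114 in WT, 85.0 to 96.7 in KO). Of the 11 markers, 0 were higher and 2 lower at an unadjusted p under 0.05 by limma, with 2 differences above 0 and 9 below. KO lay below WT on every array for 3 of the 11, where 9.05% of all genes did so. These were Cx3cr1, Marco at -0.30 (SE 0.09) and Csf1r at -0.12 (SE 0.08), the last 2 with means below the array medians. The summed level of 8 stromal and endothelial markers was 1501 to 1653 in WT and 1731 to 1862 in KO, with 0 members passing by limma (0 at an unadjusted p under 0.05) and most of it was Pecam1, without which the sums overlapped. Whether these marker differences reflect other cell types, and what part they have in the results below, was not tested. In bulk RNA, fewer cells of a type and less RNA per cell cannot be told apart. The probe set of Mir155 itself read 2.99 ± 0.15 in WT and 2.86 ± 0.08 in KO (SD, n = 3), below the array medians in both, and does not check the deletion. KO replicate 1 lay apart from the other arrays on the first principal component, at 32.0 against 5.36 and 7.31 for the other KO arrays and -19.5 to -10.6 for WT.

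Of the 10 GST genes, Gstt1 rose in miR-155 KO cells and the other 9 did not pass the test. The test was limma with Benjamini-Hochberg adjustment over all 19938 genes, and an adjusted p under 0.05 counts as passing. By the same fit 0.823% of all genes passed, 0.507% as higher and 0.316% as lower in KO. Among the 10 GST genes 1 was higher and 0 were lower (2 higher and 0 lower at an unadjusted p under 0.05). At that unadjusted level 6.24% of all genes were higher and 6.45% lower, and the unadjusted counts of the marker lists above and of every list below stand beside these shares. Without moderation of the spread, an ordinary pooled-variance test passed 0 of the 10 and 0 of all genes. KO arrays lay entirely above WT arrays for 3 of the 10 genes (Gstt1, Gstt3 and Gsto1), where 8.18% of all genes did so, and entirely below for 0 of the 10, where 9.05% did so. The median difference of the 10 genes, KO minus WT, was 0.05 on the log2 scale, beside -0.01 over all genes, with 6 differences above 0 and 4 below.

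**Figure D1:**
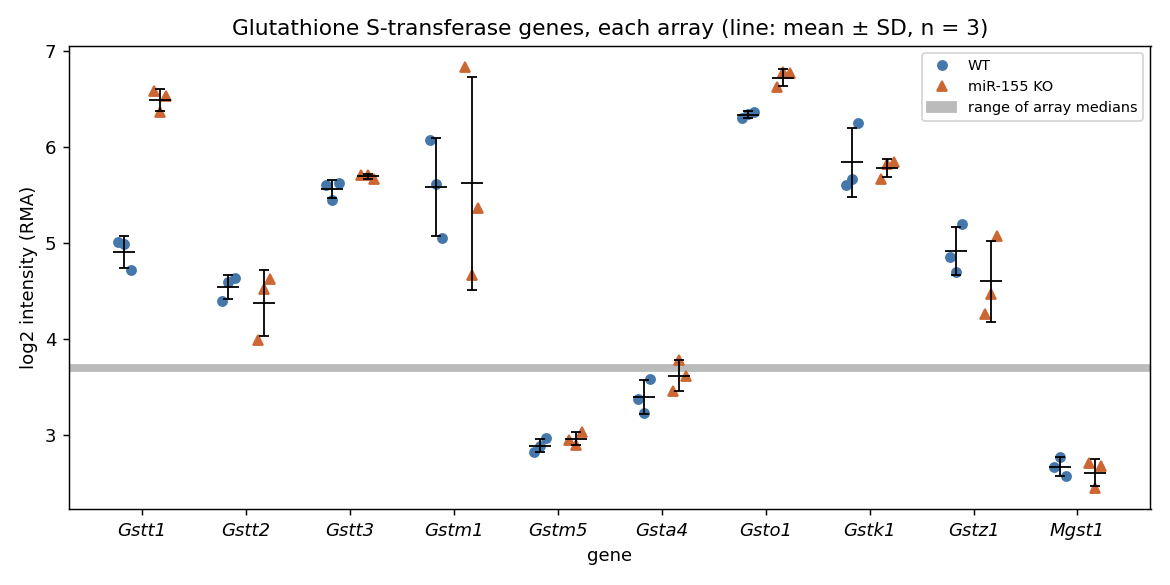
Log2 intensity (vertical axis) of the 10 GST genes (horizontal axis) on every array, with WT as blue circles, miR-155 KO as orange triangles and black lines for the mean ± SD of 3 arrays. The 3 KO arrays of Gstt1 lie between 6.36 and 6.58 and the 3 WT arrays between 4.72 and 5.01, Gstm1 spreads widely within both genotypes, and the grey band gives the array medians (3.67 to 3.74).

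Gstt1 encodes a theta class enzyme that acts on small halogenated hydrocarbons and epoxides. WT replicates 1, 2 and 3 read 5.01, 5.00 and 4.72, and KO replicates 1, 2 and 3 read 6.58, 6.36 and 6.53. Every KO array stood more than 1 log2 unit above every WT array. The mean went from 4.91 ± 0.17 to 6.49 ± 0.11 (SD, n = 3), a difference of 1.59 (SE 0.11, 95% interval 1.34 to 1.83) or 3.00-fold, with an adjusted p of 0.00206 by limma. This was the second lowest p and the 32nd largest absolute difference among all genes tested. Gstt1 passed in each of the 6 fits that left out 1 array, with differences between 1.49 and 1.65 and adjusted p between 0.00236 and 0.0204, so it did not rest on KO replicate 1. It was also among the 4 probe sets that passed when all 35557 were tested, with an adjusted p of 0.0469 by limma, near the threshold. An exact permutation test of a single gene cannot go below p = 0.1 with 3 arrays against 3, and Gstt1 was at this smallest two-sided value.

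The other theta class genes did not follow it. Gstt3, which encodes a close relative of Gstt1, read 5.60, 5.45 and 5.62 on the WT arrays and 5.71, 5.71 and 5.67 on the KO arrays. The KO arrays lay above WT by a narrow margin, with a difference of 0.14 (SE 0.08, 95% interval -0.06 to 0.33, adjusted p = 0.593 by limma). Gstt2 read 4.40, 4.60 and 4.64 in WT and 3.99, 4.52 and 4.63 in KO, and the groups overlapped. Its difference was -0.16 (SE 0.16, 95% interval -0.53 to 0.21), and KO replicate 1 was the low array: without it the difference was 0.03. The upper ends of both intervals, 0.33 and 0.21, lay below the lower end of that of Gstt1, 1.34.

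The theta class genes lie in a row on chromosome 10, and the gene beside them, Ddt, rose as well. In RefSeq order the measured genes run Lrrc75b, Ggt5, Susd2, Cabin1, Ddt, Gstt3, Gstt1, Gstt4, Gstt2, Mif, Derl3, Smarcb1, Mmp11 and Chchd10. Ddt encodes D-dopachrome tautomerase, a relative of the cytokine MIF. It read 5.65, 5.57 and 5.36 in WT and 6.24, 6.11 and 6.16 in KO, with no overlap. The difference was 0.64 (SE 0.10, 1.56-fold, adjusted p = 0.0288 by limma). Leaving out any 1 of the 6 arrays took Ddt out of the calls (adjusted p from 0.0538 to 0.0972), with differences between 0.56 and 0.71. Gstt3, which lies between Ddt and Gstt1, did not pass, and neither did Gstt4 at 0.08 (SE 0.12) or Mif at -0.12 (SE 0.09). Of the 10 flanking genes 1 was higher and 0 were lower by limma (1 at an unadjusted p under 0.05), and the differences of the 10 ran from -0.19 to the 0.64 of Ddt. The stretches shown above for Gstt1, Gstt3 and Ddt held none of the 3 motifs. The probe sequences were not used here, so how far the Gstt1 and Gstt3 probe sets read each other's transcript was not tested. Probe sets were placed by their annotated gene, and whether each one, that of Mif among them, lies at this locus was not checked.

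**Figure D2:**
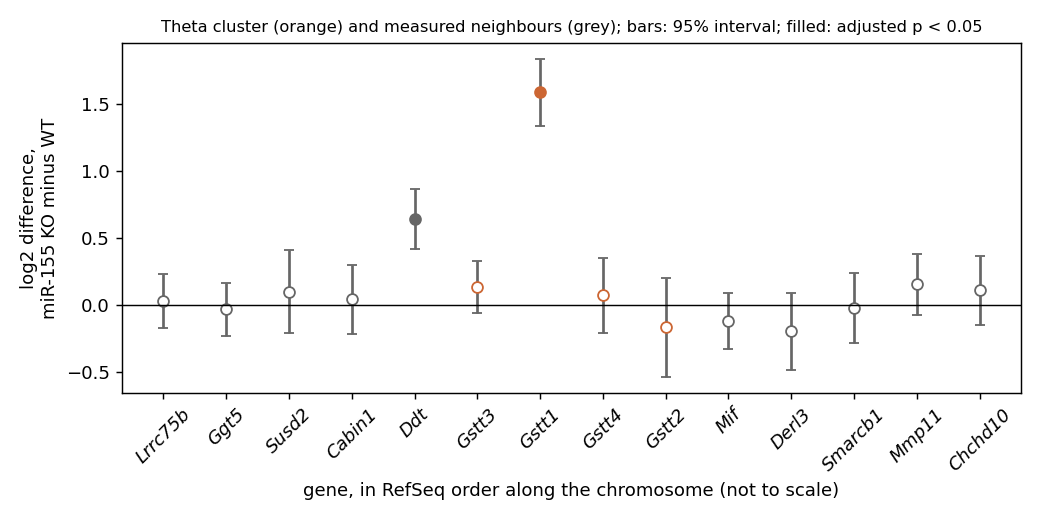
Log2 difference, KO minus WT (vertical axis, bars for the 95% interval), of the measured genes of the theta cluster (orange) and 5 measured genes on either side (grey) in their RefSeq order (horizontal axis, not to scale). Gstt1 at 1.59 and Ddt at 0.64 are filled, having passed the test, while Gstt3 between them is at 0.14.

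Gstm1 had the widest spread among the 10 genes, within both genotypes. It encodes a major mu class enzyme that conjugates many epoxides and aromatic electrophiles. It read 6.08, 5.62 and 5.06 in WT and 6.84, 4.67 and 5.37 in KO, so the KO group held both the highest and the lowest array. Its difference was 0.04 (SE 0.48), and the 95% interval of -1.06 to 1.14 leaves room for more than a 2-fold change either way. The pooled SD within genotypes was 0.86, the 24th largest of the 19938 genes. Without KO replicate 1, the highest array, the difference was -0.57 (adjusted p = 0.616 by limma), and without KO replicate 2, the lowest, it was 0.52 (adjusted p = 0.725). Gstm5, another mu class gene, read 2.83 to 2.97 in WT and 2.90 to 3.03 in KO, below the array medians on every array, and its difference was 0.07 (SE 0.08). Such readings may be background, since the deposited values carry no detection call.

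The rest of the mu cluster on chromosome 3 gave no call. Gstm2 differed by -0.45 (SE 0.22, adjusted p = 0.460), with WT replicate 1 highest at 4.52 and KO replicate 1 lowest at 3.23. Gstm3 differed by 0.13 (SE 0.18), and KO replicate 1 was its highest array at 4.95. Gstm4 differed by -0.16 (SE 0.10), Gstm6 by 0.11 (SE 0.09) and Gstm7 by -0.02 (SE 0.10). By limma 0 of the 10 flanking genes passed (0 at an unadjusted p under 0.05), with differences from -0.19 to 0.18. The mu class genes are close paralogs, so a probe set may read more than 1 of them, which was not tested. Whether each probe set, that of Gstm3 among them, lies at this locus was not checked either.

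Gsto1 came nearest to passing among the other members. It encodes an omega class enzyme that reduces dehydroascorbate and mixed disulfides rather than conjugating toxicants. The WT arrays read 6.30, 6.35 and 6.37 and the KO arrays 6.62, 6.78 and 6.77, with no overlap. The difference was 0.38 (SE 0.08, 1.31-fold, 95% interval 0.19 to 0.58) with an adjusted p of 0.0845 by limma, and between 0.0580 and 0.333 over its 15 alternatives, in all of which it was above 0. The spread within each genotype was small (SD 0.03 in WT, 0.09 in KO). Gsto2, the other omega class gene, differed by -0.10 (SE 0.09).

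Gstz1, Gstk1, Gsta4 and Mgst1 overlapped between the genotypes. Gstz1 encodes the zeta class enzyme maleylacetoacetate isomerase of tyrosine breakdown. It read 4.85, 4.70 and 5.20 in WT and 4.26, 4.47 and 5.08 in KO, a difference of -0.32 (SE 0.21, 95% interval -0.79 to 0.16). In both genotypes replicate 3 was the highest array. Gstk1, the kappa class gene, read 5.61, 5.67 and 6.25 in WT and 5.67, 5.83 and 5.85 in KO, a difference of -0.06 (SE 0.16). WT replicate 3 stood above the other 5 arrays, and without it the difference was 0.15. Gsta4, an alpha class gene whose product detoxifies hydroxynonenal from oxidised lipids, read 3.23 to 3.59 in WT and 3.46 to 3.78 in KO, near the array medians, with a difference of 0.22 (SE 0.12). Mgst1, the microsomal enzyme, read 2.57 to 2.77 in WT and 2.45 to 2.71 in KO, below the array medians, with a difference of -0.06 (SE 0.10). The adjusted p of these 4 genes lay between 0.519 and 0.944 by limma.

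Other genes of the family did not pass either. Of 19 further GST genes listed from general knowledge, 14 had a probe set of their own, and by limma 0 were higher and 0 lower (1 higher and 0 lower at an unadjusted p under 0.05), with a median difference of -0.01. The lowest p among them belonged to Gsta3, an alpha class gene, at 0.40 (SE 0.11, adjusted p = 0.143), followed by Gstm2, Mgst3 at -0.29 (SE 0.14) and Gstm4. Gstp1, the pi class gene, read 8.16, 8.38 and 8.31 in WT and 7.95, 8.08 and 8.33 in KO and differed by -0.16 (SE 0.12). Hpgds, which makes prostaglandin D2, differed by 0.01 (SE 0.19, 95% interval -0.43 to 0.44). Of 3 further genes of the membrane-bound family 0 passed by limma (0 higher and 1 lower at an unadjusted p under 0.05). Ltc4s, leukotriene C4 synthase, was the lower one at -0.38 (SE 0.09, adjusted p = 0.119), with every KO array (6.26 to 6.33) below every WT array (6.52 to 6.81). Alox5ap differed by -0.03 (SE 0.11) and Ptges by 0.11 (SE 0.11).

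**Figure D3:**
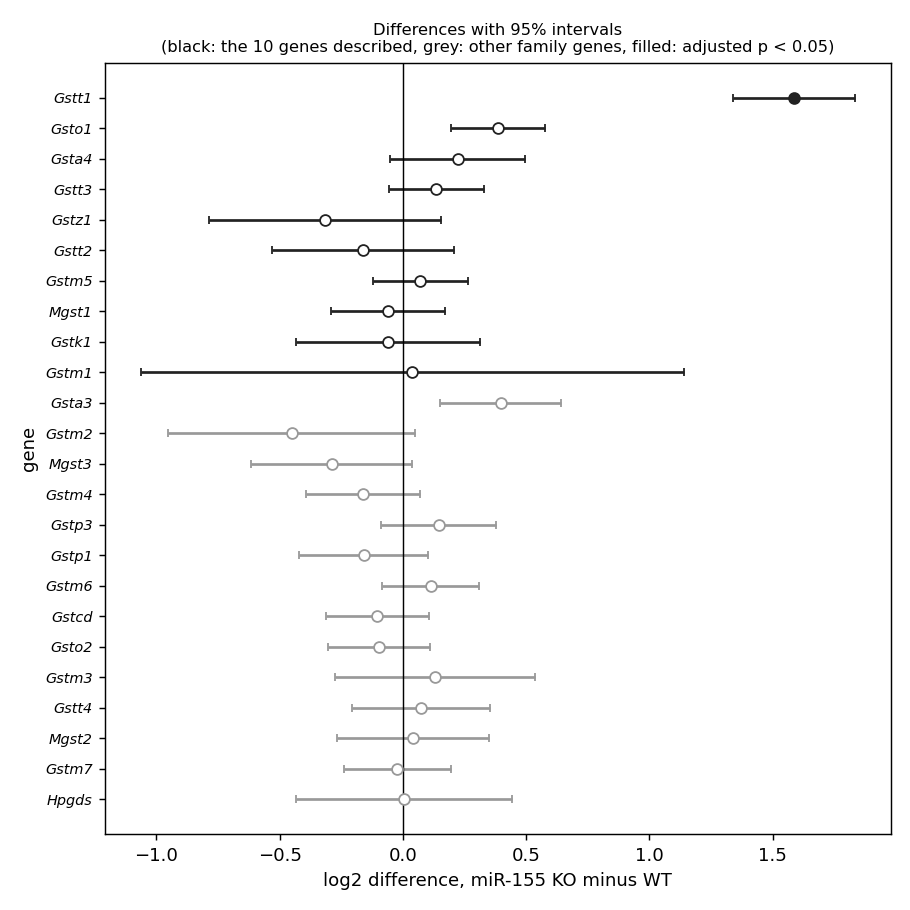
Log2 difference, KO minus WT (horizontal axis), with its 95% interval for the 10 GST genes (black) and 14 further genes of the family (grey), ordered by p within each set. The point of Gstt1 at 1.59 is filled, the only one of the 24 that passed, and the interval of Gstm1 is wide at -1.06 to 1.14.

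Among genes that make or turn over glutathione, Slc7a11 and Gclm rose. The list held 18 measured genes, of which 2 were higher, 0 lower and 16 not called by limma (4 higher and 2 lower at an unadjusted p under 0.05), and their median difference was 0.00. Slc7a11, the cystine importer, read 4.17, 4.46 and 4.55 in WT and 6.11, 5.86 and 6.69 in KO, a difference of 1.83 (SE 0.20, adjusted p = 0.00827). Gclm, the modifier subunit of glutamate-cysteine ligase, read 8.76, 8.66 and 9.04 in WT and 9.40, 9.50 and 9.39 in KO, a difference of 0.61 (SE 0.11, 1.53-fold, adjusted p = 0.0495). Both genes kept KO entirely above WT. Among the fits without 1 array, Slc7a11 missed the threshold in 1, that without WT replicate 1 (adjusted p = 0.0542), while Gclm was lost without any 1 of the 6 arrays (0.0511 to 0.172), with median centring and with a replicate block. Gclc, the catalytic subunit of that ligase, differed by 0.20 (SE 0.09, adjusted p = 0.403), Gss, glutathione synthetase, by 0.49 (SE 0.15, adjusted p = 0.196) and Gsr, glutathione reductase, by 0.25 (SE 0.08, adjusted p = 0.194), all with KO above WT on every array. Anpep, a peptidase of glutathione breakdown, differed by -0.43 (SE 0.13, adjusted p = 0.192), Slc3a2, the partner chain of Slc7a11 in the cystine importer, by -0.23 (SE 0.10, adjusted p = 0.357) and Cbs, a gene of cysteine synthesis, by -0.12 (SE 0.08, adjusted p = 0.646), all with KO below WT on every array. The 18 genes thus held 5 with KO entirely above WT and 3 with KO entirely below, beside 8.18% and 9.05% of all genes.

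Among the enzymes that use glutathione in other ways, 1 of 16 rose, 0 fell and 15 did not pass by limma (2 higher and 1 lower at an unadjusted p under 0.05), with a median difference of 0.01. The gene that rose was Esd, which encodes the esterase that releases glutathione from formylglutathione. It read 9.39, 9.43 and 9.35 in WT and 10.29, 10.33 and 9.87 in KO (difference 0.77, SE 0.13, adjusted p = 0.0365). Esd passed only without KO replicate 3 among the fits without 1 array, otherwise had an adjusted p between 0.079 and 0.138 there, and was lost after a repeated quantile normalization. Gpx4, the peroxidase of lipid hydroperoxides, differed by -0.37 (SE 0.09, adjusted p = 0.0952) with KO below WT on every array. Gpx2 differed by 0.25 (SE 0.10) and Adh5 by -0.20 (SE 0.09). Of 6 transporters that export glutathione conjugates 0 passed by limma (0 at an unadjusted p under 0.05), among them Abcc4 at -0.33 (SE 0.18), Abcc2 at 0.17 (SE 0.15), Abcg2 at 0.05 (SE 0.14) and Abcc3 at -0.03 (SE 0.10), with a median difference of 0.02.

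Transcription factors known to act on GST genes differed in 1 case. Of 10 measured factors 1 was higher, 0 were lower and 9 were not called by limma (2 higher and 1 lower at an unadjusted p under 0.05), with a median difference of -0.00. Ahr, the aryl hydrocarbon receptor, read 6.90, 6.65 and 7.10 in WT and 8.03, 7.58 and 7.76 in KO, a difference of 0.91 (SE 0.15, 1.88-fold, adjusted p = 0.0351). It passed only without KO replicate 2 among the fits without 1 array (adjusted p 0.0359, otherwise up to 0.132). Its DNA-binding partner Arnt differed by -0.09 (SE 0.08) and its repressor Ahrr by 0.03 (SE 0.11). Nfe2l2, which encodes NRF2, differed by -0.10 (SE 0.09), Keap1, which holds NRF2 in check, by -0.23 (SE 0.08, adjusted p = 0.240), and Nfe2l1, a relative of NRF2, by 0.34 (SE 0.10, adjusted p = 0.188).

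**Figure D4:**
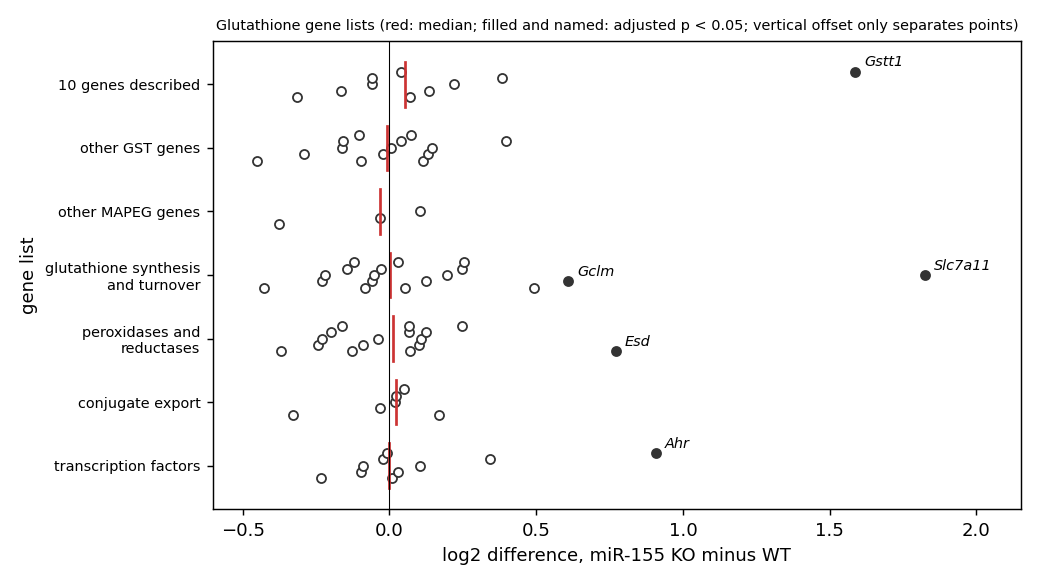
Log2 difference, KO minus WT (horizontal axis), of every measured gene in 7 lists around glutathione (rows, points spread vertically only for legibility), with red lines for the list medians. The 5 filled and named genes passed the test (Gstt1, Slc7a11, Gclm, Esd and Ahr), and the list medians lie between -0.03 and 0.05.

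The genes whose profile over the 6 arrays was nearest to that of Gstt1 were Cd82, Mgat5, Guca2a, Lfng and Serpinb9. Likeness was measured as the root mean square difference between 2 profiles after each gene was centred on its own mean. The distances, in log2 units, were 0.16 for Cd82, a tetraspanin, 0.21 for Mgat5, a glycosyltransferase of N-glycan branching, and 0.21 for Guca2a, guanylin. They were 0.23 for Lfng, a glycosyltransferase that modifies Notch, and 0.24 for Serpinb9, an inhibitor of granzyme B. All 5 were higher in KO by limma, with differences from 1.19 for Lfng to 1.58 for Serpinb9. Among the other GST genes Gsto1 was the nearest, at 0.62, and Gstz1 the farthest, at 1.01. The distance takes in the difference between genotypes as well as the variation within them. That the 5 nearest genes were higher in KO therefore follows from how they were picked.

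**Figure D5:**
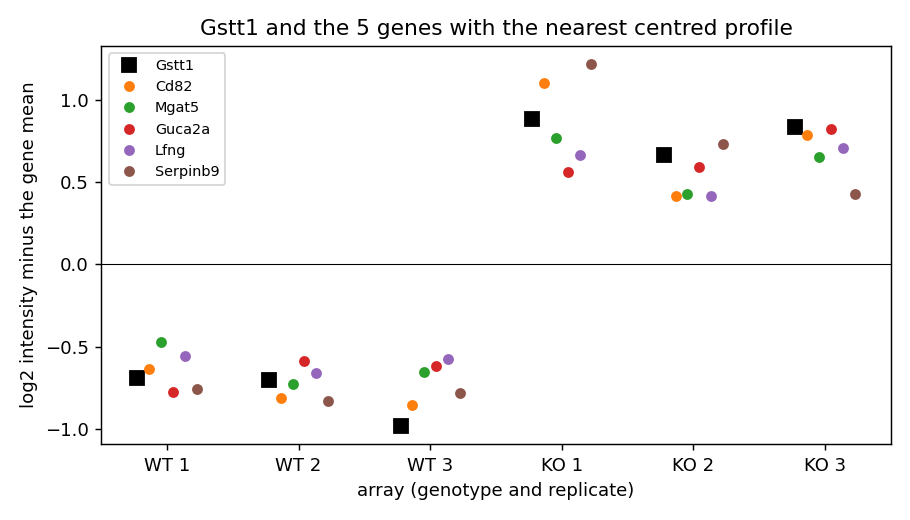
Log2 intensity minus each gene's own mean (vertical axis) on the 6 arrays (horizontal axis) for Gstt1 (black squares) and the 5 genes nearest to it (coloured circles). All 6 genes lie below 0 on the WT arrays and above 0 on the KO arrays, and Cd82 is the nearest at a distance of 0.16.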

How the data were processed

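Total RNA of 6 mast cell cultures (3 WT, 3 miR-155 KO) was labelled with biotin and hybridised to 1 array each, per the labels' protocols. The deposited values are log2 intensities that the authors made with RMA, a method that removes background, puts the arrays on 1 scale and combines a transcript cluster's probes, per the submitters' processing notes. Which RMA version and annotation build they used is not given in the sources used here.

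In the table of 35557 probe sets, the platform annotation gave 21789 exactly 1 symbol, 1621 several symbols, and did not list 12147. For each symbol the probe set with the highest mean was kept (19938 genes, 19856 with an Entrez ID in the RefSeq table of GRCm38.p6, which served for gene order). The fit over genes used lmFit and eBayes of limma 3.58.1 under R 4.3.3 (without trend or robust options, 4 residual and 4.68 prior degrees of freedom), two-sided, with Benjamini-Hochberg adjustment. SE and 95% intervals are moderated. For arrays, their number limits the precision.

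The GST genes and all lists were chosen with earlier results of these data known. The lists come from general knowledge of the pathway. The genes named are the 10 members, called genes and the 4 lowest p of each list, 5 measured neighbours on each side of the theta and mu clusters, the 5 nearest profiles to Gstt1, and Mir155. Gene models, small RNAs and olfactory genes were left out of the nearest profiles. Any other gene was named after its values were seen. Deviations of same-numbered replicates had correlations of -0.01, -0.06 and 0.24, beside -0.25 to 0.24 for unlike numbers. The same-numbered pairs did not stand out as a set, and the main fit has no block. These few values cannot exclude a pairing, and a block is among the alternatives. The fit was also run on simulated data, as a check of the code. The simulated noise followed the fit's own model, so the run says nothing on whether the calls here are right. Alternatives were a replicate block, centring on medians, quantile normalization once more, robust priors with a trend, weighted arrays, leaving out dim genes, all probe sets, averaged probe sets, an ordinary test and leaving out each array. Plots used matplotlib 3.10.9.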

Additional observations from a re-analysis of the deposited data

How the results depend on the processing

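Over 15 alternatives Gstt1 passed in 14, with differences between 1.49 and 1.65. Its adjusted p in these 14 was at most 0.0469 by limma, with every probe set tested. The exception was the ordinary pooled-variance test (adjusted p = 0.210), under which 0 GST genes passed. Averaging probe sets left the values of the GST genes as they were, since each had only 1 probe set, and again 1 passed. With the replicate number as a block, a filter on dim genes and every planned setting but the ordinary test, 1 GST gene also passed. None of the other 9 genes passed under any of the 15 alternatives. Without 1 array each, the differences of 4 genes crossed 0: Gstt2 ran from -0.29 to 0.032, Gstm1 from -0.57 to 0.52, Gstk1 from -0.18 to 0.15 and Mgst1 from -0.11 to 0.021. Array weights also turned Gstm1 (-0.27) and Gstk1 (0.0050). The cause was not tested. Gstt2, Gstm5, Gsta4 and Mgst1 fell below the filter on dim genes and have no value there.

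The count of called genes for glutathione synthesis was 1 with the replicate block and with median centring, 0 with every probe set and 0 in the ordinary test. That for the glutathione-dependent peroxidases and reductases was 0 with repeated quantile normalization, 0 with every probe set and 0 in the ordinary test, and that for the transcription factors 0 with every probe set and 0 in the ordinary test. Without 1 array each, all 3 counts ran from 0 to 1. Testing every probe set raises the number of tests to 35557. Alternatives for Ddt, Gclm, Slc7a11, Esd and Ahr as single genes were added after seeing the data.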

Other observations

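Probe sets that the annotation gives to several GST genes at once could not enter the comparison of single genes. The probe sets shared by Gstp1 and Gstp2, the pi class genes, read 6.73 ± 0.08 and 6.58 ± 0.08 in WT and 6.52 ± 0.07 and 6.38 ± 0.07 in KO (SD, n = 3). Their differences were -0.20 (SE 0.09) and -0.20 (SE 0.09). Those shared by the alpha class genes Gsta1 and Gsta2 with 2 gene models had means between 2.94 and 3.32, below the array medians. A second probe set of Gstm3 differed by 0.30 (SE 0.18), where the brighter one differed by 0.13. The SE in this paragraph come from a limma fit over all 35557 probe sets, not from the fit over genes.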
